A study of Mus musculus with 6 samples.

Results

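The ON bipolar cell mGluR6 signalling complex is the postsynaptic machinery with which bipolar cells of the retina read the glutamate signal of photoreceptors. Its members were chosen by name as the 10 genes Grm6, Trpm1, Nyx, Gpr179, Lrit3, Gnao1, Rgs7, Rgs11, Gng13 and Prkca, and every probe set with 1 of these names as its only gene symbol was taken. This gave 16 probe sets of 8 genes, among 18193 genes named on the array. No probe set carried the name Grm6 or Lrit3 in the annotation used, so the receptor itself and LRIT3 were not analysed here. Of the 16 probe sets, 12, for 7 genes, passed a filter on low signal, and the other 4 (the Gpr179 probe set, 2 of Gnao1 and 1 of Gng13) did not.

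Retinas of mice were taken at postnatal day 21 and their RNA was measured on 6 Affymetrix 3′ arrays, each from 2 pooled retinas of mixed sex. The wildtype group was 3 samples of C57Bl/6 mice and the other group 3 samples labelled ERRβ -/- knockout, from mice of mixed C57Bl/6 x Sv129 background. Esrrb encodes ERRβ, an orphan nuclear receptor. The comparison asks how retinal transcripts differ when this receptor is targeted, and genotype and strain background cannot be told apart in it. The sources used here do not say whether the mutation was present in all tissues or whether the mice were littermates. Since the labels name the pools but no animals, the p-values cover only the spread among these samples, which may be technical.

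In darkness photoreceptors release glutamate, which binds mGluR6 on ON bipolar dendrites and keeps the G protein Gαo active, and this closes the cation channel TRPM1. Light lowers glutamate, Gαo is switched off, and TRPM1 opens. Nyctalopin and LRIT3, leucine-rich repeat proteins, are needed for TRPM1 at the dendritic tips, while RGS7 and RGS11, bound to Gβ5 and anchored by GPR179, speed the shutoff of Gαo. Mutations in several of these genes cause congenital stationary night blindness.

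The signals, in intensity units, came on 2 scales: the authors' values had a trimmed mean near 500 in replicates 1 and 2 of each group and near 150 in replicate 3 of each group, and signals are compared only within a scale. They are called the higher and the lower scale below. A log2 fold change is labelled knockout minus wildtype, from limma with this scaling batch as a block, and is followed by its standard error (SE; n = 3 per group). Adjusted p is Benjamini-Hochberg over the 27022 kept probe sets, with 0.05 as the threshold. The median signal over all probe sets ran from 114 to 135 at the higher scale and was 57.3 and 61.5 at the lower. The 11 rod photoreceptor markers kept had a summed signal of 236520 to 296603 in the arrays scaled near 500, and the 22 bipolar cell markers one of 46702 to 52286. Genes of both lists were thus detected. Trnp1 and Otx2 gave the largest parts of the bipolar sum (10361 and 8041 in wildtype replicate 1). The brightest Esrrb probe set showed no fall with the knockout label but a positive log2 fold change of 0.37. Its adjusted p was 0.0852 in a limma fit without the filter on low signal and 0.0529 with the filter. Other Esrrb probe sets had 0.45 and 0.19, the latter with 0.31 and -0.05 at the 2 scales. The sources used here do not place the Esrrb probes relative to the deletion, so the arrays are called labelled knockout. Lens markers were higher in the same arrays (14 of 15 rose, median 3.68), and for Actb the ratio between 3′ and 5′ control probe sets, which follows RNA quality, was 1.83 to 2.32 in wildtype and 1.66 to 1.82 in labelled knockout arrays. For Gapdh the same ratio overlapped between the groups, at 0.719 to 0.731 in labelled knockout against 0.712 to 0.779 in wildtype arrays. The part of the lens markers or of RNA quality in the results below was not tested.

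No member probe set passed the test: 0 of 12 were called with the batch as a block, where 2.25% of all kept probe sets were called (1.04% higher and 1.22% lower). At an unadjusted p under 0.05 there were 5 of 12, beside 20.4% of all kept probe sets. The members had differences of both signs. Of the 12 probe sets 7 were higher and 5 lower, with a median log2 fold change of 0.09 beside -0.02 for all kept probe sets. Their median absolute log2 fold change was 0.28, beside 0.19 for all. Trpm1 holds 4 of the 12, all higher. By the brightest probe set of each gene, 3 genes were higher and 4 lower, with a median of -0.07 beside 0.02 for all genes. The values nearest the threshold were a higher signal for Trpm1, the channel gene, and a lower one for Gnao1, the G protein gene.

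The arrays of the 2 scales gave different counts. In a fit of the 4 arrays scaled near 500 alone, 6 of the 12 member probe sets were called (3 higher and 3 lower), where 13.7% of all kept probe sets were (6.05% higher and 7.68% lower). Leaving out either array of the pair scaled near 150 also gave 6. The batch block then takes up the array that remains, so the log2 fold changes are the same and this is not a separate check. The 6 were probe sets of Trpm1, Gng13 and Prkca, which were higher, and of Gnao1, Rgs11 and another of Prkca, which were lower. In 8 of the 12 probe sets the difference had the same sign in the arrays scaled near 500 and near 150, beside 54.6% of all kept probe sets. In 6 of the 12 the groups did not overlap in the arrays scaled near 500 and differed the same way near 150, beside 33.6% of all kept probe sets. For the members the values of both scales are given. In whole retina, fewer cells of a type and less RNA per cell cannot be told apart.

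**Figure D1:**
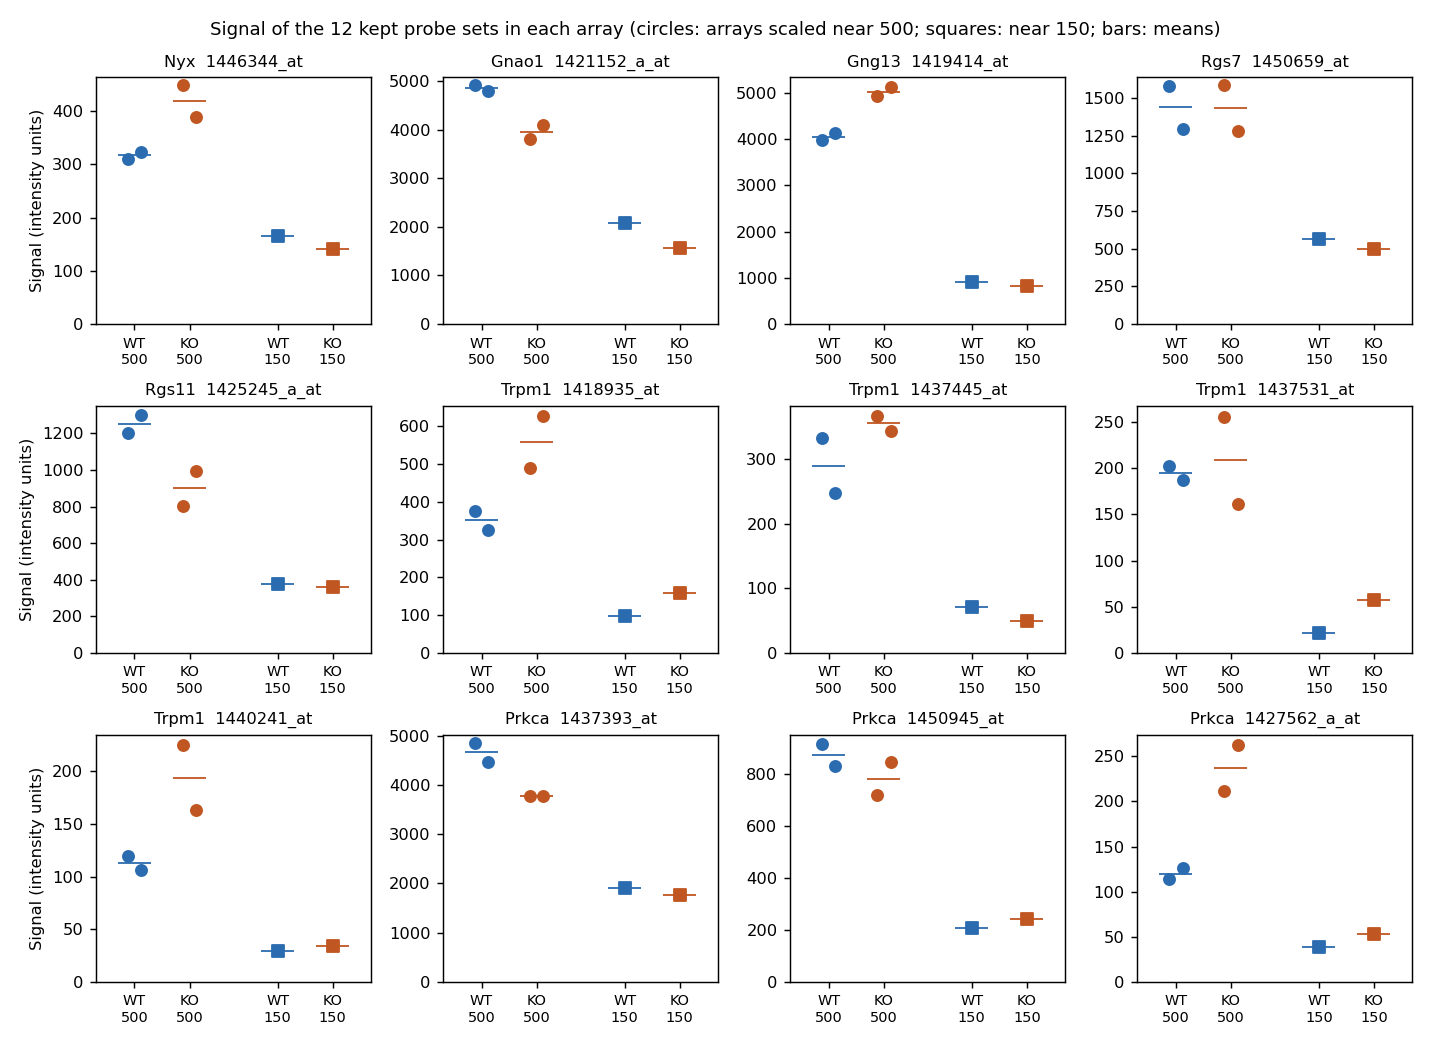
Signal in intensity units of each of the 12 kept member probe sets, one panel per probe set, in wildtype (WT, blue) and labelled knockout (KO, orange) arrays scaled near 500 (circles, 2 per group) and near 150 (squares, 1 per group), with bars at the means. Trpm1 1418935_at was higher and Gnao1 1421152_a_at lower in labelled knockout arrays at both scales.

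Trpm1 encodes the channel that carries the light response of ON bipolar cells, and it is also a gene of pigment cells, in which it was first found as melastatin. The RefSeq table gives it more than 1 transcription start, and the stretches before these starts are shown. The 4 Trpm1 probe sets are given 1 by 1 below, and whether they differ from each other was not tested. The window before the start of Nyx is shown because it is the member window with a match to AAGGTCA, the core of the ERR response element. Sequences are from RefSeq for build GRCm38.p6, plus strand, 250 bases ending at the base before the start site. Capitals mark TAATCC, the motif of the homeodomain factors Crx and Otx2 (here as its reverse complement), in the first Trpm1 window, the E-box CANNTG in the second, and AAGGTCA in that of Nyx.
Trpm1 first window, chr7:64153585-64153834: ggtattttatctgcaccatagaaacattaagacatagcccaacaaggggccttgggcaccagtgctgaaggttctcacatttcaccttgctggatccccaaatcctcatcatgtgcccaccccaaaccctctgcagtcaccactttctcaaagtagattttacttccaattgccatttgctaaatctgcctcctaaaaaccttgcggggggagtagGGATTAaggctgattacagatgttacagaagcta
Trpm1 second window, chr7:64185209-64185458: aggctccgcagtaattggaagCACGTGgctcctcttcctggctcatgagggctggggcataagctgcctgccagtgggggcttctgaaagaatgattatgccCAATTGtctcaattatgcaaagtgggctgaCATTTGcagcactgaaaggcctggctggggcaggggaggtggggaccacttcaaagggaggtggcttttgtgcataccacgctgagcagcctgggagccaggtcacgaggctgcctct
Nyx window, chrX:13460840-13461089: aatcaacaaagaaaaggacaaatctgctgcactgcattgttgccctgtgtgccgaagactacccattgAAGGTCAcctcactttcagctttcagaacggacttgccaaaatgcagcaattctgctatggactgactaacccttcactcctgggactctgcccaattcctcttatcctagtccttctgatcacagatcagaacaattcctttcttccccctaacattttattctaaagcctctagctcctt

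Each motif was searched on both strands of the 300-base windows, which run 50 bases past the start. AAGGTCA was present in 1 of 11 member windows and in 4.72% of 32851 windows of all genes. The match in Nyx lies at -182 from the start site. TAATCC was present in 1 of 11, at -34 in the first Trpm1 window, and in 7.06% of all windows. CANNTG was in 11 of 11 and in 72.3% of all. In the first Trpm1 window an E-box reading CATGTG lies at -141, and in the second one reading CACGTG lies at -229. No match shown overlaps a match to another of these motifs. The members matched were Grm6, Nyx, Lrit3, Gnao1, Gng13, Rgs7, Gpr179, Trpm1 and Prkca; the table had no entry for Rgs11. A match is a run of letters and not a site known to be bound.

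Nyx encodes nyctalopin, which sits on the outer face of the dendritic membrane and binds TRPM1 and mGluR6. Its probe set read 311 and 323 in wildtype against 449 and 390 in labelled knockout arrays at the higher scale, and 165 against 141 at the lower scale. The groups did not overlap at the first scale, where the labelled knockout arrays were higher, and the order was the opposite at the second. The log2 fold change was 0.19 ± 0.17 (95% interval -0.19 to 0.57, adjusted p = 0.567), with 0.40 and -0.24 at the 2 scales. Whether these differ was not tested.

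Gnao1 encodes Gαo, the G protein that mGluR6 activates, which is also abundant in other neurons of the inner retina. Its bright probe set, 1421152_a_at, read 4916 and 4798 in wildtype against 3817 and 4106 in labelled knockout arrays at the higher scale. At the lower scale it read 2077 against 1573. Every labelled knockout array was below every wildtype array of its scale. The log2 fold change was -0.33 ± 0.073 (95% interval -0.49 to -0.17), a ratio of 0.795, with -0.29 and -0.40 at the 2 scales. Its adjusted p of 0.0514 lies just above the threshold. It was 0.0491 with 16 added to every signal, 0.0327 with quantile normalization within each scale, 0.0375 with a stricter filter, 0.0863 with no filter, 0.264 with no variance trend, and 0.124 with a replicate block. With 1 higher-scale array left out it was 0.166 to 0.237, and in the 4 higher-scale arrays alone 0.024. The other Gnao1 probe sets were dim. Probe set 1460383_at read 18.1 to 79.9 over the 6 arrays and 1448031_at 6.94 to 37.4, both under the filter, and in the unfiltered fit their log2 fold changes were 0.60 ± 0.52 and -0.73 ± 0.82.

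Gng13 encodes the γ subunit that pairs with Gβ3 and Gαo in ON bipolar cells. Probe set 1419414_at read 3976 and 4140 in wildtype against 4928 and 5131 in labelled knockout arrays at the higher scale. It read 902 and 815 in the wildtype and labelled knockout arrays of the lower scale. The labelled knockout arrays were the higher ones at the first scale, with no overlap, and the lower one at the second. The log2 fold change was 0.16 ± 0.10 (95% interval -0.07 to 0.38, adjusted p = 0.41). In the 4 higher-scale arrays alone it was 0.31 ± 0.072 (adjusted p = 0.0171 in limma), and the lower-scale pair gave -0.15. A second probe set of Gng13 read 19.7 to 67.6 and was under the filter.

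Rgs11 and Rgs7 encode the GTPase activating proteins that shut off Gαo, and either can serve in ON bipolar cells. The Rgs11 probe set read 1204 and 1303 in wildtype against 803 and 995 in labelled knockout arrays at the higher scale, and 378 against 363 at the lower scale. The groups did not overlap at the higher scale, and the difference was -0.49 there and -0.06 between the pair of the lower scale. The log2 fold change was -0.35 ± 0.13 (95% interval -0.63 to -0.06, adjusted p = 0.17), and -0.49 ± 0.12 in the 4 higher-scale arrays alone (adjusted p = 0.023).

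The Rgs7 probe set read 1579 and 1294 in wildtype against 1584 and 1280 in labelled knockout arrays at the higher scale. At the lower scale it read 565 and 496. The groups overlapped, and the spread between samples of a group was larger than the difference of the means. The log2 fold change was -0.07 ± 0.12 (95% interval -0.33 to 0.20, adjusted p = 0.791). The difference between Rgs7 and Rgs11 was not tested.

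Gpr179 encodes the orphan receptor that anchors the RGS proteins to the dendritic tips. Its probe set read 111 and 19.1 in wildtype against 23.2 and 32.9 in labelled knockout arrays at the higher scale, and 52.8 against 59.99 at the lower scale. These readings lie under the array medians, and wildtype replicates differed by more than the groups. In the unfiltered fit the log2 fold change was -0.43 ± 0.68 (95% interval -1.95 to 1.08), so a difference in either direction was not detectable at this signal.

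**Figure D2:**
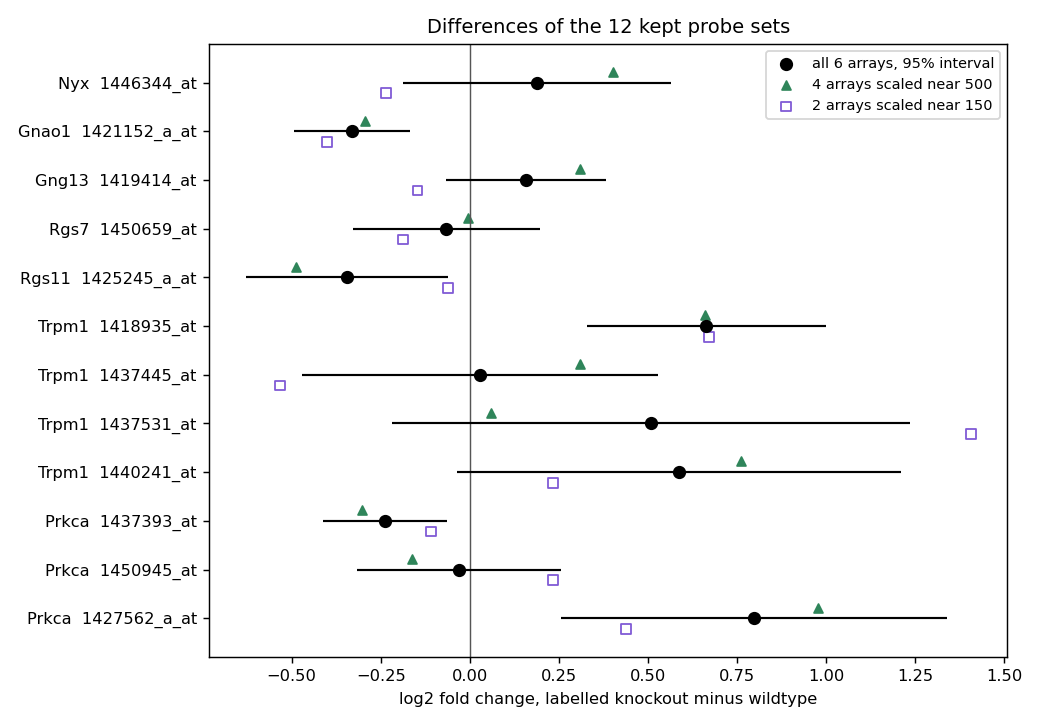
Log2 fold change (labelled knockout minus wildtype) of the 12 kept member probe sets, from all 6 arrays with its 95% interval (black), within the 4 arrays scaled near 500 (green triangles) and within the 2 scaled near 150 (purple squares). For Trpm1 1418935_at the values of both scales nearly coincide (0.66 and 0.67), while those of Trpm1 1437531_at (0.06 and 1.41) lie far apart. The 1.41 comes from 1 array per group, with signals under the array medians.

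For Trpm1 the brightest probe set, 1418935_at, which is the one annotated to a RefSeq mRNA, read 377 and 326 in wildtype against 489 and 627 in labelled knockout arrays at the higher scale. It read 98.8 and 157 in the wildtype and labelled knockout arrays of the lower scale. Every labelled knockout array was above every wildtype array of its scale. The log2 fold change was 0.66 ± 0.15 (95% interval 0.33 to 1.00), a ratio of 1.58, and it was 0.66 and 0.67 at the 2 scales. The adjusted p was 0.0543, just above the threshold. With the stricter filter it was 0.0395, in the 4 higher-scale arrays alone 0.0277, with no filter 0.0798, with no variance trend 0.235, and with a replicate block 0.115. With 1 higher-scale array left out it was 0.127 to 0.265.

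The other Trpm1 probe sets showed a larger spread. Probe set 1440241_at read 119 and 107 in wildtype against 225 and 163 in labelled knockout arrays, and 29.1 against 34.2 at the lower scale, a log2 fold change of 0.59 ± 0.28 (adjusted p = 0.272). Its labelled knockout arrays were the higher ones at both scales. Probe set 1437531_at read 202 and 188 against 256 and 161, with overlap, and 21.4 against 56.7 at the lower scale (0.51 ± 0.32, adjusted p = 0.41). The lower-scale readings of 1440241_at and 1437531_at lie under the array medians, as do the higher-scale wildtype readings of 1440241_at. Probe set 1437445_at read 332 and 247 against 366 and 344, and 71.5 against 49.4 at the lower scale, so its order turned between scales (0.03 ± 0.22, adjusted p = 0.955). Its sign changed with quantile normalization over all arrays, and its lower-scale labelled knockout reading lies under the array median. The sources used here do not place the probe sets along the gene, so which start site each reports on is not known here.

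Genes of pigment cells were higher in the same arrays. On the list of pigment epithelium markers 10 of 10 kept genes had a positive log2 fold change, 4 rose (1.28% of all genes rose) and none fell, with a median of 0.56 beside 0.02 for all genes. The 4 were Tyrp1 (0.77 ± 0.091, adjusted p = 0.00397) and Dct (0.62 ± 0.097, adjusted p = 0.0157), which encode melanin synthesis enzymes, and the melanosome genes Pmel (1.05 ± 0.13) and Mlana (1.19 ± 0.16). Without wildtype replicate 2 none of the list was called, and without knockout replicate 1 there were 2. Mitf, which encodes the pigment cell transcription factor for which Trpm1 is a known target, had 0.04 ± 0.15 (adjusted p = 0.908). The summed signal of the list was 33432 and 34161 in wildtype against 38964 and 46022 in labelled knockout arrays at the higher scale, and 1089 against 1800 at the lower scale. At the lower scale some markers read under the array medians in both wildtype and labelled knockout. These were Lrat (5.46 and 17.7), Mlana (17.7 and 54.5), Rpe65 (23.4 and 39.4) and Tyr (24.7 and 49.6). The other markers of the list read above the medians. The part of pigment cells in the Trpm1 signal was not tested.

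**Figure D3:**
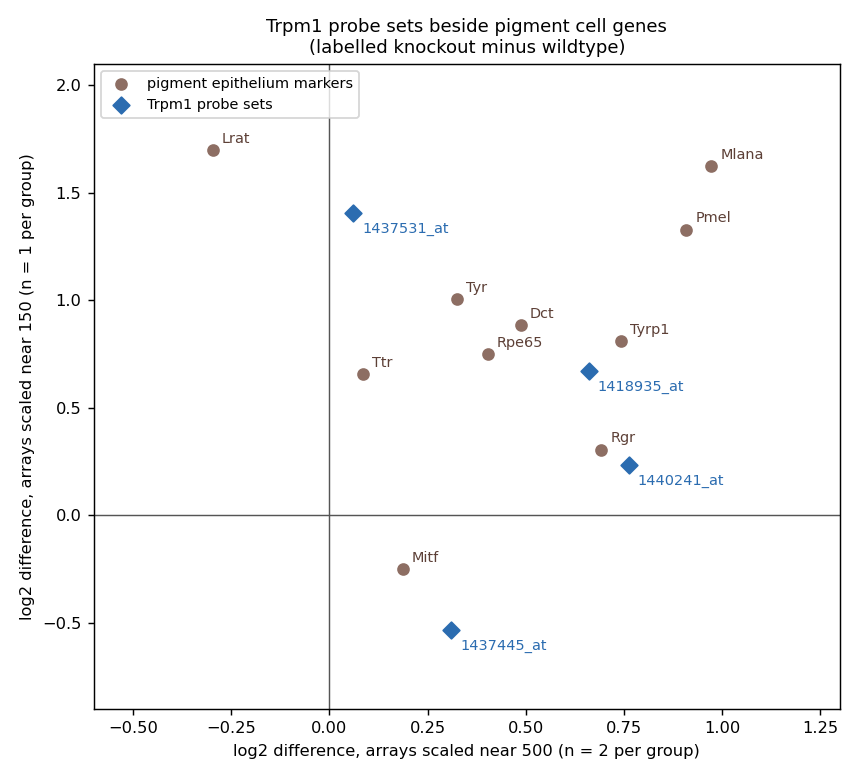
Log2 difference (labelled knockout minus wildtype) within the arrays scaled near 500 (horizontal axis, 2 arrays per group) against that within the arrays scaled near 150 (vertical axis, 1 array per group) for the 4 Trpm1 probe sets (blue diamonds) and 10 pigment epithelium markers (brown circles). Trpm1 1418935_at (0.66 and 0.67) lies beside Tyrp1 (0.74 and 0.81), and Trpm1 1437445_at (0.31 and -0.53) lies nearest to Mitf (0.19 and -0.25).

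Prkca encodes protein kinase C α, the standard marker of rod bipolar cells, which modulates their light response. Its 3 kept probe sets gave no common direction. The brightest, 1437393_at, read 4865 and 4463 in wildtype against 3784 and 3771 in labelled knockout arrays at the higher scale, and 1912 against 1774 at the lower scale. Every labelled knockout array was below every wildtype array of its scale, and the log2 fold change was -0.24 ± 0.078 (95% interval -0.41 to -0.06, adjusted p = 0.136), with -0.30 and -0.11 at the 2 scales.

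Prkca probe set 1427562_a_at differed the other way. It read 114 and 126 in wildtype against 212 and 263 in labelled knockout arrays, and 39.0 against 52.8 at the lower scale. Its log2 fold change was 0.80 ± 0.24 (95% interval 0.26 to 1.34, adjusted p = 0.116). The wildtype signals lay under the array medians at both scales, and the labelled knockout signal did so at the lower scale. Probe set 1450945_at read 916 and 831 against 718 and 847, and 206 against 242 at the lower scale, with overlap (-0.03 ± 0.13, adjusted p = 0.918). In the 4 higher-scale arrays alone the brightest probe set was called lower (adjusted p = 0.0231) and 1427562_a_at higher (adjusted p = 0.033). No direction is therefore given for the gene.

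Other genes of the cascade were described through a list of 21 names, of which 20 were kept. Of these 2 fell and none rose, where 2.75% of all genes were called (1.48% lower), and the median log2 fold change was 0.06. Rgs9bp, which encodes R9AP, a membrane anchor of RGS9 in photoreceptors and of RGS11 in ON bipolar cells, read 10508 and 10467 in wildtype against 6282 and 6006 in labelled knockout arrays at the higher scale. At the lower scale it read 2975 against 2576. Its groups did not overlap at the higher scale (-0.77, and -0.21 at the lower), and it fell by 0.58 on the log2 scale (SE 0.11, adjusted p = 0.0306; 0.0775 with a replicate block). Ric8b, a chaperone of G protein α subunits, fell by 0.40 (SE 0.077, adjusted p = 0.0327; 0.0896 with a replicate block; -0.45 and -0.31 at the 2 scales), while its second kept probe set had -0.06. Neither was called when any 1 of the 4 higher-scale arrays was left out. Ric8a, also on the list and named after its value was seen, went the other way from Ric8b and did not pass. Its brightest probe set had 0.39 ± 0.11 (adjusted p = 0.095 in limma; 0.47 and 0.23 at the 2 scales). Other kept Ric8a probe sets had 0.35, -0.31 and -0.22.

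The β subunits that pair with the members were named for their role after their values were seen. Gnb3, the partner of Gng13, read 4668 and 4525 in wildtype against 5545 and 5397 in labelled knockout arrays, and 1051 against 1206 at the lower scale (0.23 ± 0.070, adjusted p = 0.111). Gnb5, the partner of both RGS proteins, read 17233 and 18050 against 12911 and 12878, and 3307 against 3131 (-0.33 ± 0.087, adjusted p = 0.085). So Gnb3 was the higher and this brightest Gnb5 probe set the lower in labelled knockout arrays at both scales, and neither passed; a second Gnb5 probe set had 0.01. The 2 other largest differences of the list did not pass: Rgs9, the photoreceptor RGS protein gene, had -0.77 ± 0.33 (-1.42 and 0.54 at the 2 scales; -0.38 and 0.07 for its other kept probe sets), and Rgs6 0.61 ± 0.58 (1.27 and -0.71).

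Of 12 genes for the photoreceptor side of the synapse and for scaffold and adhesion proteins across it, 1 rose and 1 fell (median -0.16), where 1.28% of all genes rose and 1.48% fell. Lrfn2, a leucine-rich repeat adhesion protein of the postsynaptic density, read 262 and 299 in wildtype against 529 and 460 in labelled knockout arrays, and 103 against 229 at the lower scale. The groups did not overlap at the higher scale (0.82, and 1.16 at the lower), and it rose by 0.93 ± 0.15 (adjusted p = 0.018; 0.0536 with a replicate block). Cacna2d4, a calcium channel subunit of the photoreceptor terminal, fell by 0.46 (adjusted p = 0.0245; 0.0666 with a replicate block; -0.45 and -0.48 at the 2 scales) in its brightest probe set, while its 2 other kept probe sets had 0.05 and -0.25. Homer2, a scaffold protein gene, had -0.55 ± 0.13 (adjusted p = 0.0656; -0.67 and -0.30). Its second kept probe set had -0.50 ± 0.17 (adjusted p = 0.145; -0.69 and -0.12), and neither passed. Elfn1, which encodes the photoreceptor protein that binds mGluR6 across the cleft and was named for that role after its value was seen, had -0.21 ± 0.097 (adjusted p = 0.269; -0.18 and -0.27). Neither Lrfn2 nor Cacna2d4 was called when any 1 of the 4 higher-scale arrays was left out.

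The list of bipolar cell markers outside the complex holds markers of ON and of OFF cells. Of 25 names 22 were kept, and 0 passed in limma in their brightest probe sets (2.75% of all genes were called). At an unadjusted p under 0.05 there were 5 of 22, beside 21.3% of all genes. The median was -0.03, with 10 positive and 12 negative values. Among the brightest probe sets the largest differences were those of Grik1 (-0.68 ± 0.28, adjusted p = 0.213; -1.08 and 0.11 at the 2 scales), Vsx1 (-0.68 ± 0.21, adjusted p = 0.122; -0.98 and -0.06) and Qpct (0.57 ± 0.14, adjusted p = 0.0635; 0.79 and 0.11). A second probe set of Grik1 had 0.22. A dimmer probe set of Car8, a carbonic anhydrase-related gene, did pass and is named after its value was seen. This probe set, 1457904_at, read 541 and 529 in wildtype against 97.5 and 78.6 in labelled knockout arrays at the higher scale, and 320 against 195 at the lower scale. It fell by 1.98 on the log2 scale (SE 0.33, adjusted p = 0.0208; 0.0532 with a replicate block), while the brightest Car8 probe set had -0.05 ± 0.087 (adjusted p = 0.769) and another -0.54 ± 0.26. With 1 higher-scale array left out the adjusted p of 1457904_at was 0.0995 to 0.158, and with no variance trend 0.235. The summed signal was 47921 and 46702 in wildtype against 50065 and 52286 in labelled knockout arrays at the higher scale, and 11323 against 11270 at the lower scale. Among lists of other cell types, 1 of 11 rod markers rose and none fell (median -0.25, with 9 of 11 negative; Cngb1, a subunit gene of the rod channel, with adjusted p = 0.0428, 0.105 with a replicate block, and 0.122 to 0.23 with 1 higher-scale array left out), and 0 of 15 amacrine and ganglion cell markers (median -0.07) and 0 of 10 Müller glia markers (median 0.16) passed in limma. At an unadjusted p under 0.05 there were 7 of 11 rod, 4 of 15 amacrine and ganglion cell and 2 of 10 Müller glia markers. Of the 7 rod markers Cngb1 was the positive one. At the higher and lower scale the list medians were -0.25 and 0.003 for rod and 0.16 and -0.16 for Müller glia markers. For amacrine and ganglion cell markers they were -0.03 and -0.08, and for bipolar cell markers 0.03 and 0.02.

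**Figure D4:**
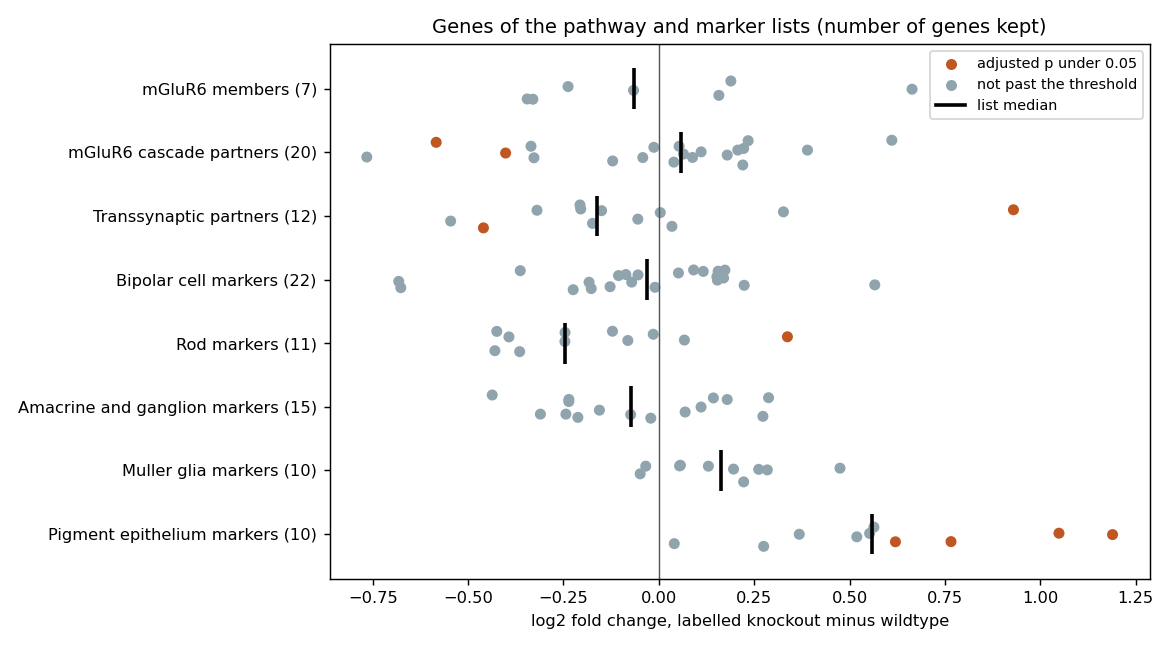
Log2 fold change (labelled knockout minus wildtype) of each kept gene on the pathway and marker lists, with the number of genes in brackets, red points for adjusted p under 0.05, and black bars for list medians; the vertical scatter within a row has no meaning. No member of the mGluR6 complex is red, and the pigment epithelium markers all lie above 0 with a median of 0.56. The lens list, with a median of 3.68, is outside the range drawn.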

How the data were processed

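The 6 arrays were grouped by the genotype in their titles. The authors deposited linear intensities, 1 for each probe set and array. The submitters' processing notes name GCOS 1.4 and MAS5, without saying what each did. Trimmed means (2% at either end) set the scaling batch, near 500 or near 150. Of 45101 probe sets, 64 controls were left out. Signals were taken to log2 and not normalized further. A filter at the 40th percentile of mean log2 signal (a geometric mean of 54.5) kept 27022 probe sets. limma 3.58.1 in R 4.3.3 (lmFit and eBayes with a variance trend, two-sided) was used with the batch as a block, and tested on simulated data. A member probe set under the filter has its values from the unfiltered fit. In lists, a gene is represented by its brightest kept probe set. Arrays carry no read depth, and the number of arrays limits the precision.

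Names came from a platform annotation in which 34945 probe sets had 1 symbol, 932 several and 9160 none. Same-numbered samples deviated together from their group means (correlations 0.57, 0.67 and 0.843), which meets the rule used for pairing (above 0.1 in each). Since replicate 3 of each group is on the lower scale, number and scale cannot be told apart in these values. Within the arrays scaled near 500 the correlation was 0.0153, so no pairing beyond the scale was seen there. Arrays correlated at 0.953 to 0.978 within and 0.799 to 0.864 between scales. The members, the lists and the tests were chosen with earlier results of these data known. All member probe sets are named; of other lists, genes past the threshold and the 3 largest differences are named where a result turns on them, and genes named otherwise are marked. A rule for genes most like Grm6 was not applied, since Grm6 was not measured here. The result of 1 further motif search is not reported here. Alternatives were the batch and replicate blocks, 16 added before log2, other filters (none, or the 60th percentile), quantile normalization, no variance trend, and leaving out arrays.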

Additional observations from a re-analysis of the deposited data

How the results depend on the processing

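With no scaling batch block, 0 of all probe sets and 0 pathway genes were called, against 609 and 4 with it. With a replicate block, which leaves 2 residual degrees of freedom in place of 3, these counts were 200 and 0, and the member count stayed at 0. Without the variance trend they were 19 and 0, with no filter 405 and 2, and with the 60th percentile filter 955 and 6. In the 4 arrays scaled near 500 alone they were 3710 and 15. Leaving out 1 array gave 79 to 3702 probe sets and 0 to 17 pathway genes. The high counts came from the fits without an array scaled near 150, which repeat the comparison within the arrays scaled near 500. The member count, 0 as reported, was 1 with 16 added, 1 with quantile normalization within scales, 1 with it over all arrays, 2 with the 60th percentile filter, 6 in the arrays scaled near 500 alone, and 0 to 6 with 1 array left out. Of single member values under the alternatives, 147 kept direction and side of the threshold, 23 passed it where the reported value did not, and 7 changed sign. These are not separate checks. The fit of the arrays scaled near 500 and the fits without an array scaled near 150 have the same log2 fold changes. Most of the 23 are the same probe sets counted in each of these fits. The sign changes were -0.021 for Trpm1 1437445_at with quantile normalization over all arrays, and, with 1 array left out, Trpm1 1437445_at (-0.17 to 0.31), Rgs7 (-0.17 to 0.0038) and Prkca 1450945_at (-0.16 to 0.076). The range was 0.56 to 0.77 for Trpm1 1418935_at and -0.37 to -0.29 for Gnao1 1421152_a_at. The causes of these changes were not tested. Signals under the array medians, as for Gpr179, limit what can be seen.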

Other observations

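Pcp2 encodes a protein of bipolar cells and Purkinje cells that binds Gαo, and its 3 kept probe sets did not share a direction. The brightest read 8916 and 8372 in wildtype against 9698 and 10885 in labelled knockout arrays at the higher scale, and 1170 against 1308 at the lower scale, a log2 fold change of 0.22 ± 0.076 (adjusted p = 0.153 in limma). The second had 0.30 ± 0.078. The third, 1424944_at, read 1006 and 1081 against 456 and 548, and 169 against 145 at the lower scale, a log2 fold change of -0.78 ± 0.18. At the higher scale the groups did not overlap in any of the 3, and each differed the same way at the lower scale. Both were true of 33.6% of all kept probe sets, so such a result was common on these arrays. Pcp2 was singled out after its values were seen.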
